A study of Mus musculus with 9 samples.

Results

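The 10 genes described here encode the route from cystine to glutathione and on to the lipid peroxidase Gpx4: the cystine transporter (Slc7a11, Slc3a2), the supply of cysteine from methionine (Cth), glutathione synthesis (Gclc, Gclm, Gss), its recycling (Gsr), its use against lipid peroxides (Gpx4) and its breakdown (Chac1, Chac2). They were taken by gene name, and all 10 are among the 52306 named genes of the deposited table. RNA-seq was done on 4T1 cells, a mouse mammary carcinoma line, in 9 libraries at day 2, kept in DMEM with fetal bovine serum. There were 3 groups of 3 libraries: NC, the control; MK1775, an inhibitor of the kinase Wee1 also known as adavosertib; and Wee1 siRNA, by its label a small interfering RNA that targets Wee1. The labels put all 3 groups under a protocol of cell proliferation inhibition, and they do not say whether NC received a vehicle or a control siRNA, nor whether replicates came from separate cultures. Handling and agent therefore cannot be told apart, and the tests cover only library-to-library spread, which may be technical. No dose of MK1775 and no siRNA sequence is in the labels. The Wee1 siRNA titles carry a # after the number, unlike those of the other groups. Whether these libraries received the same siRNA or different siRNAs is not stated. The study's title ties Wee1 targeting to sensitivity to ferroptosis.

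Cells take up cystine through a transporter made of a light chain, Slc7a11, and a heavy chain, Slc3a2, and reduce it to cysteine. Glutamate-cysteine ligase and then glutathione synthetase build glutathione, which Gpx4, a selenium-containing enzyme, spends to reduce lipid peroxides in membranes. When this defence fails, iron-dependent lipid peroxidation kills the cell, which is called ferroptosis. The transcription factor Atf4, made more when translation initiation is restrained, is known to drive Slc7a11, Slc3a2, Chac1 and Cth, and Nrf2 (gene Nfe2l2) is known to drive Slc7a11, Gclc, Gclm and Gsr.

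Atf4 binds C/EBP-ATF response elements and Nrf2 binds antioxidant response elements, so the 250 bases before the start of 3 of these genes are printed to show where such letters stand. The sequences are from RefSeq on GRCm38.p6, another build than the GRCm39 of the expression table, and were matched by symbol, which found 7 of the 10 genes. Capitals mark the core TGATGNAA of the first element in Slc7a11 and Chac1 and the core TGACNNNGC of the second in Gclm, on either strand.
Slc7a11, chr3:50443614-50443863, minus strand: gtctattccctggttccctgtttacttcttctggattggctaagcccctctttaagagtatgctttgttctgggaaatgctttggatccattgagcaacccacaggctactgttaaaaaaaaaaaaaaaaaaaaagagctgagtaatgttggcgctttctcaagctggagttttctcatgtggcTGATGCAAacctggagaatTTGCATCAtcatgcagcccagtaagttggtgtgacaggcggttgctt
Chac1, chr2:119350992-119351241, plus strand: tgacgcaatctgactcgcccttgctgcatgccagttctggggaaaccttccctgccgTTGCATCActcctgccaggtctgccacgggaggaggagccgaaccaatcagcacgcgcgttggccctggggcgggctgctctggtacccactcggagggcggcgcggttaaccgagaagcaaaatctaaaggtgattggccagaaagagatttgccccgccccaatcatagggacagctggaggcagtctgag
Gclm, chr3:122245307-122245556, plus strand: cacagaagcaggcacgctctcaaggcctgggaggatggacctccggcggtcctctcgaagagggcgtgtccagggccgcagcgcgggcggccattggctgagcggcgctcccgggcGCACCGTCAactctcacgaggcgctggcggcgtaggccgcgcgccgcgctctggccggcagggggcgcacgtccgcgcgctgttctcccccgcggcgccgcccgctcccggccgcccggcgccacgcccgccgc
In Slc7a11 the 2 matches, in opposite orientation, began 66 and 47 bases before the start, and in Chac1 the match began 193 bases before it. Over windows of 300 bases (250 before and 50 from the start), 3.97% of all 32851 RefSeq windows hold TGATGNAA and 12.4% hold TGACNNNGC, and the motifs do not overlap here. The windows of Slc3a2, Gss, Chac2 and Gpx4 held neither core. A match is a run of letters, and binding was not measured.

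Depth is unknown, since the files give FPKM, fragments assigned to a transcript scaled by its length and by the library's total, and no read totals. Total FPKM was 321551 to 332950 per library, 10017 to 10783 named genes reached 1 FPKM, and transcripts without a gene name held 10.0% to 11.2% of FPKM in NC and 12.1% to 12.8% in the treated libraries. Wee1 was not lower in any treated library. Its mean was 11.01 ± 0.498 FPKM for NC, 15.5 ± 1.16 for MK1775 and 14.5 ± 1.22 for the siRNA group (SD, n = 3). Against NC it was called higher in both (log2 fold change 0.46 and 0.37, limma adjusted p = 0.00226 and 0.00633). Its locus holds 2 named genes and as a whole differed by 0.53 and 0.46 on the log2 scale. The siRNA group is therefore written as the labelled Wee1 siRNA libraries, and directions drawn from it rest on the label. Of 8 epithelial markers 5 were at 1 FPKM or more in each group, with Epcam, Cldn4 and Cldn7 below, and the summed level of the 8 was 434 to 497 FPKM in NC, 779 to 792 with MK1775 and 723 to 726 in the labelled Wee1 siRNA libraries. Krt18 and Krt8 made up most of that sum, while Krt7 fell from a mean of 24.4 FPKM in NC to 13.9 and 14.03 (limma adjusted p = 0.0205 and 0.0188), and Cldn7, too low to test, was at 0.0840, 0.0142 and 0.0370 FPKM. The part of these markers in the results was not tested. The immune markers Cd3e, Adgre1 and Lyz2 and the platelet marker Pf4 were at 0 in all 9 libraries, and among immune markers Cd14 had the highest mean, 5.65 FPKM, in NC. In bulk samples such as these, fewer cells that express a gene and less RNA per cell cannot be told apart.

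In NC cells the genes of this route spanned a wide range of levels. FPKM is scaled by transcript length, so levels can be compared between genes. Gpx4 stood highest at 145 ± 9.37 FPKM (SD, n = 3), above 97.2% of the genes tested, followed by Slc3a2, Gsr, Cth, Gclm, Gclc, Chac1, Gss and Chac2 at 5.43 ± 0.478. Slc7a11 came last, at 0.656 ± 0.0611 FPKM with its unnamed transcript added. No neighbours in that order overlapped between libraries. With MK1775 the order was the same but for Chac1, which passed Gclc, Gclm and Cth to rank 4, and it held rank 4 in the labelled Wee1 siRNA libraries too, where Gss and Chac2 overlapped.

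**Figure D1:**
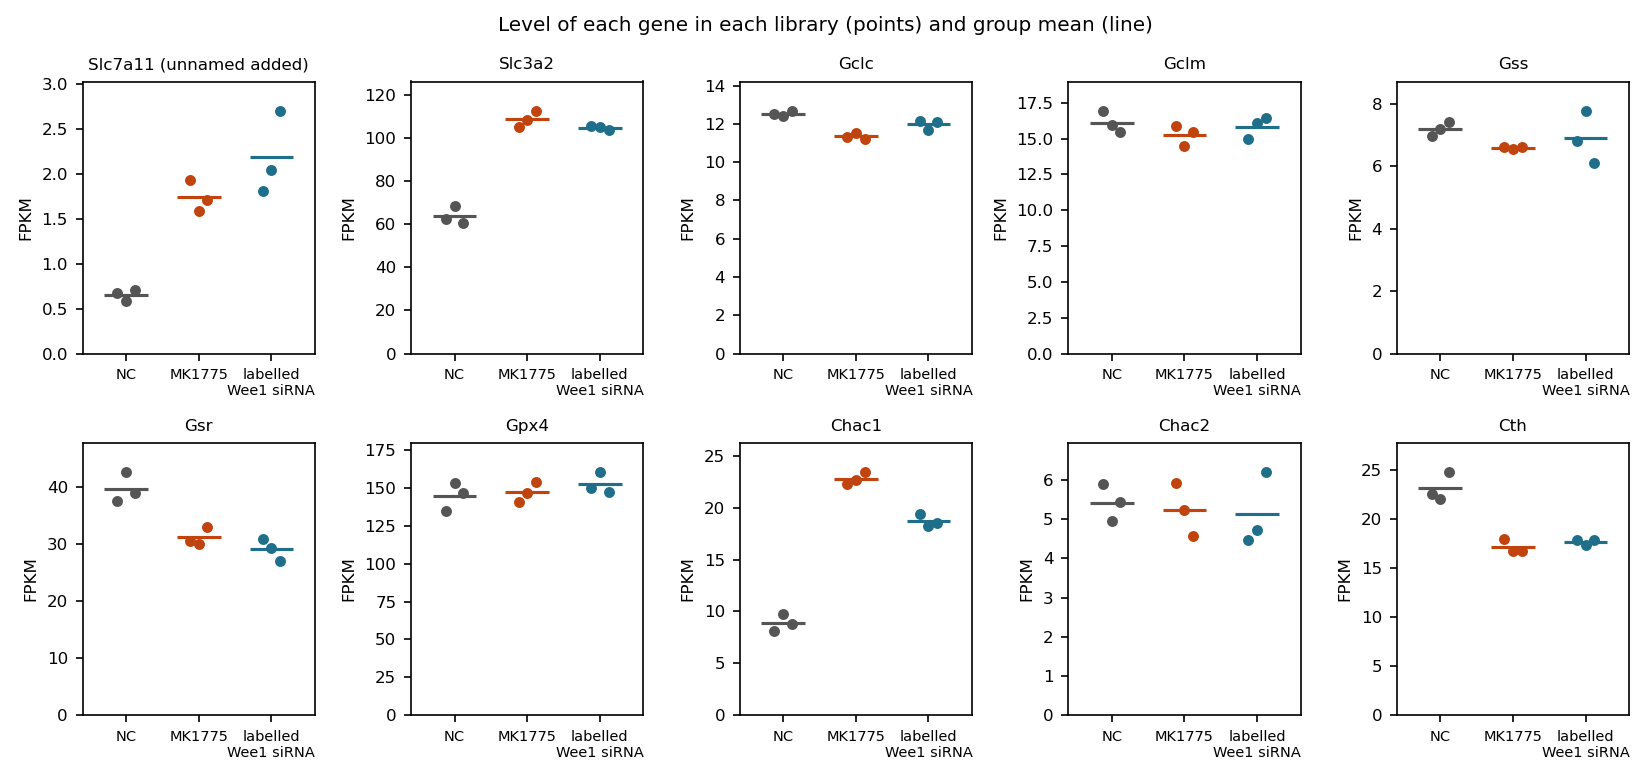
FPKM (vertical axes, each starting at 0) of the 10 genes in the 3 libraries of each group, shown as points with the group mean as a line. Slc7a11, Slc3a2 and Chac1 lie higher and Gsr and Cth lower in all 6 treated libraries than in NC, while Gpx4, Gclm and Chac2 overlap.

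Each treated group was compared with NC, as the design text sets out, with the same 3 NC libraries in both comparisons. The heavy chain of the cystine transporter, Slc3a2, and the glutathione-degrading enzyme Chac1 rose against NC in both treated groups, Cth and Gsr fell in both, and Gpx4, Gclm, Gss and Chac2 passed in neither. The light chain, Slc7a11, rose in both only with its unnamed transcript added, where it reached the minimum level through the treated libraries alone. Its named transcripts were too low to test and had lower means in the treated groups than in NC. With named transcripts 9 of the 10 genes reached the minimum mean of 1 FPKM, and of these 2 rose and 3 fell with MK1775. The background was 41% of 10453 genes called in either direction there, 17.9% higher and 23.1% lower. In the labelled Wee1 siRNA libraries 2 of the 9 rose and 2 fell, beside 42.8% of all genes called, 19.6% higher and 23.2% lower. With unnamed transcripts added all 10 were tested, and 3 rose and 3 fell with MK1775 (54.1% of all genes called, 25.3% higher and 28.8% lower). In the labelled Wee1 siRNA libraries 3 rose and 2 fell (56.2% of all genes called, 28% higher and 28.2% lower). The shares of these genes called were near the background, so the counts are no result about these genes as a group. Counting libraries that do not overlap NC, 7 of 10 genes with MK1775 and 6 of 10 in the labelled Wee1 siRNA libraries stood apart with unnamed transcripts added, beside 62.3% and 60.2% of all genes. The median log2 fold change of the 9 was -0.07 and -0.06, and that of all genes tested -0.04 and -0.01.

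**Figure D2:**
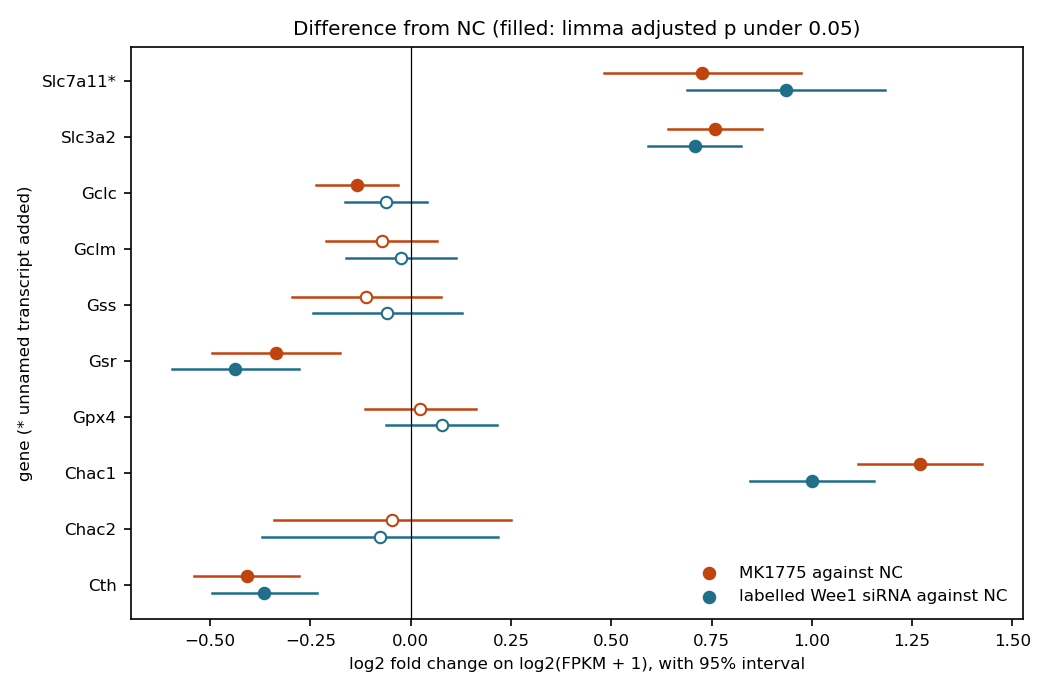
Log2 fold change against NC (horizontal axis, on log2(FPKM + 1)) with its 95% interval for each gene, MK1775 above and the labelled Wee1 siRNA libraries below in each pair. Filled points had a limma adjusted p under 0.05: Slc7a11, Slc3a2, Chac1, Gsr and Cth in both comparisons and Gclc with MK1775. Slc7a11 is shown with its unnamed transcript added and reached the minimum level through the treated libraries alone.

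Slc7a11, the light chain that carries cystine in exchange for glutamate, lies on the minus strand of chromosome 3 from 49846975 to 50398063 (GRCm39, the span of its named transcripts). That span is set by ENSMUST00000194462, at 0 FPKM in every library, and the other transcripts lie within 50319387 to 50398063. With its unnamed transcript added it was at 0.678, 0.587 and 0.703 FPKM in NC, 1.93, 1.59 and 1.71 with MK1775, and 1.81, 2.05 and 2.70 in the labelled Wee1 siRNA libraries. All 6 treated libraries were above all NC libraries, and replicate 3 of the labelled Wee1 siRNA group was the highest. The means were 2.66-fold and 3.34-fold that of NC. On the log2(FPKM + 1) scale, which understates changes at such levels, Slc7a11 rose by 0.73 with MK1775 (SE 0.11, limma adjusted p = 0.000477) and by 0.94 in the labelled Wee1 siRNA libraries (SE 0.11, adjusted p = 0.000101). A pseudocount of 0.1 gave 1.29 and 1.58 and quantile normalization 0.42 and 0.56, called in each case. The gene passed the minimum of 1 FPKM only through the treated libraries.

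Which transcript model received the reads of Slc7a11 differed between libraries. The named 12-exon transcript (ENSMUST00000029297, 9226 bases) and an unnamed 13-exon one (9157 bases) cover nearly the same span. In NC replicate 2 the unnamed model was at 0 and the named transcripts held 0.587 FPKM, whereas in NC replicates 1 and 3 the named ones held 0.0353 and 0.0221. In the treated groups the unnamed model held 93% (MK1775) and 92.5% (labelled Wee1 siRNA) of the gene's FPKM on average. Named transcripts alone came to 0.215 ± 0.322 FPKM in NC against 0.121 ± 0.0697 with MK1775 and 0.167 ± 0.0692 in the labelled Wee1 siRNA libraries (SD, n = 3), overlapping and too low for the test. The sum over both models varied little among the NC libraries, as the plot by transcript shows.

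**Figure D3:**
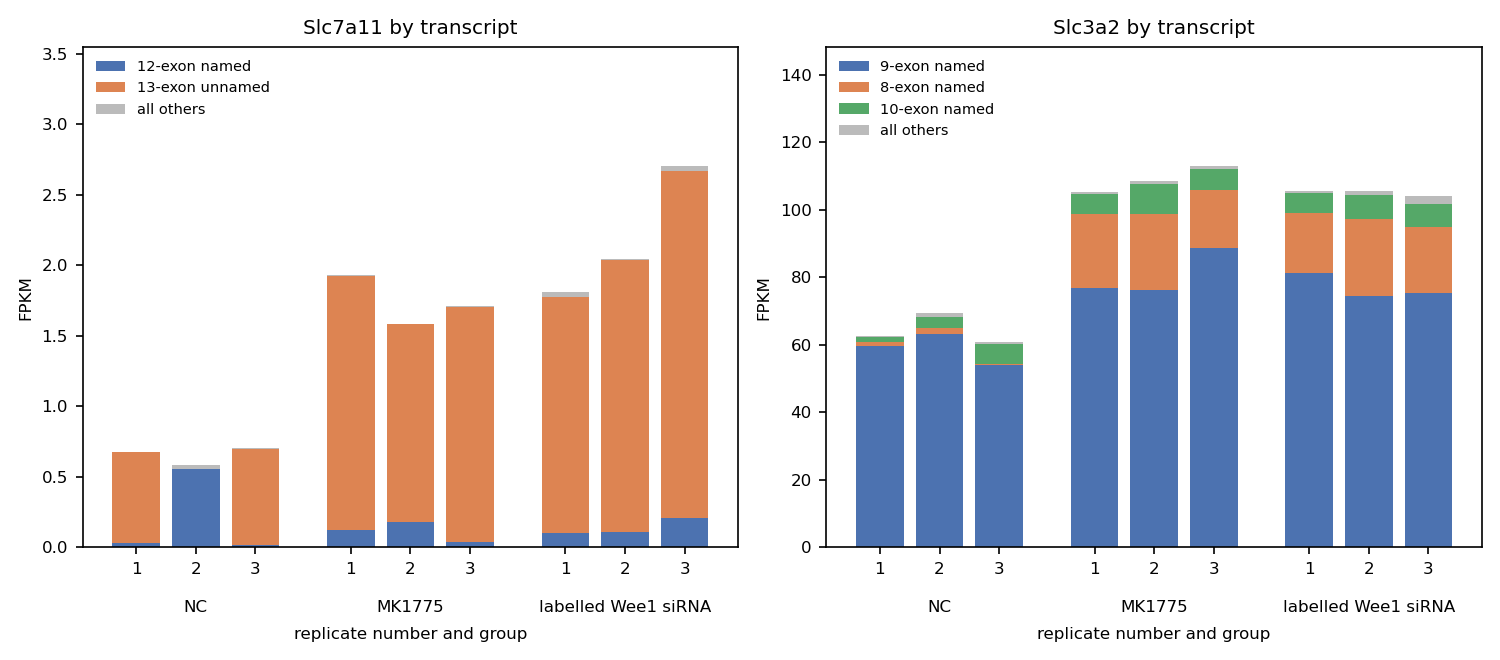
FPKM of Slc7a11 (left) and Slc3a2 (right) in each library, stacked by transcript, with replicate numbers under the bars. The 13-exon unnamed Slc7a11 model is at 0 in NC replicate 2, and the 8-exon Slc3a2 transcript goes from a mean of 1.05 FPKM in NC to 20.7 with MK1775 and 19.9 in the labelled Wee1 siRNA libraries.

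Slc3a2, the heavy chain that Slc7a11 shares with other amino acid transporters, lies on the minus strand of chromosome 19 from 8684246 to 8700733. Its named transcripts were at 62.7, 68.4 and 60.8 FPKM in NC, 105, 108 and 113 with MK1775, and 106, 105 and 104 in the labelled Wee1 siRNA libraries. The groups did not overlap NC, and Slc3a2 rose 1.70-fold and 1.64-fold (log2 fold change 0.76 and 0.71, SE 0.051 for each, limma adjusted p = 2.02e-05 and 2.74e-05). Its level in NC was about 99.2 ± 17.0 times that of Slc7a11 with the unnamed model added, against 63.0 ± 7.42 times with MK1775 and 49.5 ± 10.0 times in the labelled Wee1 siRNA libraries (SD, n = 3).

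A single short transcript carried much of the rise of Slc3a2. ENSMUST00000206598, with 8 exons and 1393 bases, was at 1.02, 1.66 and 0.476 FPKM in NC, 22.2, 22.6 and 17.3 with MK1775, and 17.5, 22.8 and 19.3 in the labelled Wee1 siRNA libraries, a 19.6-fold and an 18.9-fold difference in means (exact two-sided permutation p = 0.1, the smallest that 3 against 3 allows). It made up 43.8% and 45.9% of the gain in FPKM of the gene. The main 9-exon transcript (ENSMUST00000010239) went from 59.0 ± 4.70 FPKM to 80.5 ± 7.03 and 77.2 ± 3.71, also with no overlap, and made up 47.9% and 44.3%. Without the 8-exon transcript Slc3a2 still rose, by 0.48 and 0.43 (adjusted p = 0.000617 and 0.00101), and the most abundant transcript alone rose by 0.44 and 0.38. How reads shared by these transcripts were divided is part of the authors' estimate and was not tested.

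Cth, the last enzyme of transsulfuration, which releases cysteine made from methionine, fell. It lies on the minus strand of chromosome 3 from 157599885 to 157630714. Its FPKM was 22.5, 22.1 and 24.8 in NC, 17.98, 16.8 and 16.8 with MK1775, and 17.9, 17.4 and 17.9 in the labelled Wee1 siRNA libraries, so that every treated library was below every NC library. The mean fell by 25.8% with MK1775 (log2 fold change -0.41, SE 0.057, limma adjusted p = 0.000779) and by 23.4% in the labelled Wee1 siRNA libraries (-0.37, SE 0.057, adjusted p = 0.00131). Its direction was thus opposite to that of Slc7a11, Slc3a2 and Chac1 in both treated groups. A transcript with 12 exons held 98.8% to 99.8% of its FPKM in every library, and its locus also holds the named gene Gm43314.

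The genes of glutathione synthesis showed small differences. Gclc, the catalytic subunit of glutamate-cysteine ligase and the rate-limiting step (chromosome 9, 77661817 to 77701767, plus strand), was at 12.5, 12.4 and 12.7 FPKM in NC, 11.3, 11.5 and 11.2 with MK1775, and 12.2, 11.7 and 12.1 in the labelled Wee1 siRNA libraries. Neither treated group overlapped NC, where 54% and 52.2% of all genes tested also had no overlap. With MK1775 it fell by 9.53% (log2 fold change -0.13, SE 0.044, adjusted p = 0.0429), a call that 15 of 20 alternatives ended, among them leaving out any of the 9 libraries (adjusted p = 0.0513 to 0.125) and each rescaling. In the labelled Wee1 siRNA libraries its change was -0.06 (95% interval -0.16 to 0.04, adjusted p = 0.305).

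Gclm, the modifier subunit that makes the ligase more efficient (chromosome 3, 122039206 to 122064381, plus strand, a locus shared with Gm6061), was at 16.1 ± 0.775 FPKM in NC against 15.3 ± 0.703 with MK1775 and 15.8 ± 0.741 in the labelled Wee1 siRNA libraries (SD, n = 3; log2 fold change -0.07, 95% interval -0.21 to 0.07, and -0.02, -0.16 to 0.11). The ratio of Gclc to Gclm was 0.780 ± 0.0429, 0.744 ± 0.0435 and 0.758 ± 0.0465 in the same order. Gss, which adds glycine to finish glutathione (chromosome 2, 155405101 to 155434730, minus strand), was at 7.20 ± 0.221, 6.59 ± 0.0395 and 6.90 ± 0.839 FPKM (-0.11, 95% interval -0.30 to 0.07, and -0.06, -0.24 to 0.13). All 3 MK1775 libraries were below NC for Gss, where 54% of all genes tested also had no overlap, while the labelled Wee1 siRNA libraries lay on both sides. The share of Gss FPKM in its main 13-exon transcript was 98.2% in NC, 92.1% with MK1775 and 89.2% in the labelled Wee1 siRNA libraries. The intervals leave room for changes of up to 0.30 on the log2 scale in these 2 genes.

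Gsr, the reductase that turns oxidised glutathione back with NADPH, fell in both treated groups. It lies on the plus strand of chromosome 8 from 34142551 to 34188191. Its FPKM was 37.5, 42.6 and 38.8 in NC, 30.6, 30.05 and 32.9 with MK1775, and 30.8, 29.3 and 27.0 in the labelled Wee1 siRNA libraries. No treated library reached the lowest NC library. The mean fell by 21.3% (log2 fold change -0.34, SE 0.069, limma adjusted p = 0.00542) and by 26.8% (-0.44, SE 0.069, adjusted p = 0.0014).

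Gpx4, the peroxidase that reduces lipid peroxides with glutathione, did not pass the test in either comparison. It lies on the plus strand of chromosome 10 from 79883000 to 79892385. Its FPKM was 135, 153 and 147 in NC, 141, 147 and 154 with MK1775, and 150, 161 and 148 in the labelled Wee1 siRNA libraries, and all groups overlapped. The log2 fold change was 0.02 with MK1775 (95% interval -0.11 to 0.16, adjusted p = 0.784) and 0.08 in the labelled Wee1 siRNA libraries (-0.06 to 0.22, adjusted p = 0.341). Quantile normalization gave 0.15 in the latter, called there (adjusted p = 0.0295). A transcript with 7 exons (ENSMUST00000105372) held 93.2% to 97.9% of its FPKM in every library. Relative to Gsr, which regenerates its substrate, Gpx4 was 3.72 ± 0.117 times as high in NC, 4.83 ± 0.131 times with MK1775 and 5.42 ± 0.420 times in the labelled Wee1 siRNA libraries (SD, n = 3).

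Chac1 and Chac2 both cleave glutathione in the cytosol, and only Chac1 is known as a stress-induced gene. Chac1, on the plus strand of chromosome 2 from 119181710 to 119184862, was at 8.11, 9.78 and 8.81 FPKM in NC, 22.3, 22.7 and 23.5 with MK1775, and 19.4, 18.3 and 18.6 in the labelled Wee1 siRNA libraries. The 3 groups did not overlap at all. Chac1 rose 2.56-fold and 2.11-fold (log2 fold change 1.27 and 1.00, SE 0.067 for each, limma adjusted p = 6.67e-06 and 2.04e-05). Chac2 (chromosome 11, 30926707 to 30936350, minus strand) was at 5.43 ± 0.478, 5.24 ± 0.678 and 5.13 ± 0.938 FPKM (SD, n = 3; -0.05, 95% interval -0.34 to 0.25, and -0.08, -0.37 to 0.22), overlapping throughout. The ratio of Chac1 to Chac2 was 1.66 ± 0.303 in NC, 4.41 ± 0.689 with MK1775 and 3.74 ± 0.689 in the labelled Wee1 siRNA libraries, again without overlap between NC and treated.

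The treated groups were also compared with each other. With limma 0 of 9 genes passed, where 0.00957% of all genes did (1 of 10453), and 0 of 10 passed with unnamed transcripts added (0.00914%). Of the 9, 1 had an unadjusted p under 0.05, beside 5.89% of all genes. That gene was Chac1, higher with MK1775 by 0.27 (95% interval 0.11 to 0.42, unadjusted p = 0.00397, adjusted p = 0.584). Chac1 and Gclc were the 2 of 9 genes whose values did not overlap between the treated groups, as in 11.9% of all genes. Slc7a11 with the unnamed model added was at -0.21 (95% interval -0.45 to 0.04), Slc3a2 at 0.05 (-0.07 to 0.17), Gsr at 0.10 (-0.06 to 0.26), Cth at -0.04 (-0.17 to 0.09) and Gpx4 at -0.05 (-0.19 to 0.09), all MK1775 minus labelled Wee1 siRNA on the log2 scale. These intervals bound the difference and do not show that the treatments acted alike.

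The genes around this route were read from lists written from textbook knowledge, but chosen with earlier results of these data known. Their counts therefore describe the listed genes and are no independent support. Of 106 listed genes 77 were tested: 10 rose and 26 fell with MK1775 (46.8% called) and 14 rose and 26 fell in the labelled Wee1 siRNA libraries (51.9%), a little above the background given earlier, with a median log2 fold change of -0.08 in each. For each single list described from here on, the background with named transcripts is the share of all genes called. It was 17.9% higher and 23.1% lower with MK1775, and 19.6% and 23.2% in the labelled Wee1 siRNA libraries. Of the transcription factors and their inhibitors, 5 of 12 rose with MK1775, 7 rose in the labelled Wee1 siRNA libraries and none fell in these 2 comparisons. Atf4 went from 99.7 ± 5.73 FPKM in NC to 194 ± 5.88 and 188 ± 4.95, and the stress-induced factors Ddit3 and Atf3 rose by 3.26 and 3.68 with MK1775 and by 3.37 and 3.55 in the labelled Wee1 siRNA libraries on the log2 scale. Nfe2l2 was at 32.4 ± 0.218, 35.8 ± 1.74 and 33.4 ± 1.69 FPKM, not called (adjusted p = 0.0672 and 0.559), though called at 0.21 and 0.16 with its unnamed transcripts added, and with MK1775 also under each rescaling (0.18 to 0.21) and without MK1775 replicate 3 (0.18).

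Of 6 tested amino acid transporters 1 rose and 1 fell with MK1775, and 2 rose and 1 fell in the labelled Wee1 siRNA libraries. Slc1a4, a carrier of neutral amino acids, rose from 5.91 ± 0.104 FPKM to 18.01 ± 0.667 and 17.5 ± 0.744, while the related Slc1a5 fell from 56.7 ± 2.70 to 38.5 ± 1.47 and 38.0 ± 2.08. Upstream of Cth, 3 of 6 tested genes of the methionine cycle and methionine salvage fell in each comparison and none rose. The share of all genes called lower was 23.1% with MK1775 and 23.2% in the labelled Wee1 siRNA libraries. Cbs and Bhmt, also on that list, did not reach a mean of 1 FPKM, so no transsulfuration gene besides Cth was tested. Mat2a, which makes S-adenosylmethionine, fell from 70.1 ± 1.34 FPKM to 35.0 ± 1.84 and 41.9 ± 2.59, Ahcy, which makes homocysteine, from 79.3 ± 4.76 to 48.4 ± 1.27 and 46.9 ± 1.00, and Mtap, which salvages methionine, from 173 ± 3.95 to 98.3 ± 1.49 and 91.4 ± 3.35. These falls went the same way as that of Cth.

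Genes that use cysteine elsewhere were split, with 2 rises and 2 falls of 5 in each comparison. The cysteine desulfurase Nfs1 fell by 0.87 and 0.76 on the log2 scale, but its locus holds 4 named genes and as a whole differed by -0.30 and -0.38. Mpst, a sulfurtransferase, rose by 0.29 and 0.26, and by 0.99 and 0.88 in its most abundant transcript. Of 5 tested genes of glutathione breakdown and export, 1 rose and 2 fell with MK1775 and 1 rose and 1 fell in the labelled Wee1 siRNA libraries. Lap3, a leucine aminopeptidase, fell by 0.60 and 0.62, and Ggct, which acts on the gamma-glutamyl products of glutathione breakdown, rose from 2.17 ± 0.203 FPKM to 3.27 ± 0.389 and 2.88 ± 0.0264, the latter call ending under 8 of 19 alternatives.

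Over all genes tested, 23.1% were called lower with MK1775 and 23.2% in the labelled Wee1 siRNA libraries, which is the background for the lists that follow. Glutaredoxins and mitochondrial glutathione carriers fell in 3 of 6 in each comparison, and none rose: Glrx3 fell by 0.64 and 0.68 and the mitochondrial Glrx2 by 0.46 and 0.55 on the log2 scale. Glutathione transferases and glyoxalases fell in 4 and 5 of 13, among them Gsto1 (from 45.9 ± 2.59 FPKM to 29.8 ± 2.12 and 28.1 ± 1.95) and Gstm2 (from 28.6 ± 1.64 to 21.3 ± 0.835 and 22.1 ± 0.821), a family whose similar copies make single values uncertain. Of NADPH supply and thioredoxin reduction 5 of 11 fell in each comparison, with the NADPH-forming Idh1 at 18.5 ± 1.73 FPKM in NC against 9.97 ± 0.626 and 10.5 ± 0.251, and Idh2 at -0.40 and -0.45 on the log2 scale. Of the other glutathione peroxidases only Gpx1 and Gpx8 were tested, and neither passed with named transcripts. Gpx1 was at 202 ± 13.6, 199 ± 10.1 and 192 ± 5.68 FPKM, and Gpx8 at -0.13 and 0.00 on the log2 scale, but it fell by 0.23 and 0.28 with its unnamed transcript added.

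Gpx4 needs selenocysteine, and of 11 tested genes of selenoprotein synthesis 6 fell in each comparison, while 1 rose with MK1775 and 2 rose in the labelled Wee1 siRNA libraries. The median log2 fold change of that list was -0.38 and -0.33, beside -0.04 and -0.01 over all genes tested. Sephs2, which makes the selenium donor, fell from 40.4 ± 2.81 FPKM to 23.0 ± 1.81 and 24.3 ± 1.44, and its relative Sephs1 from 22.4 ± 0.259 to 11.3 ± 0.628 and 11.95 ± 0.436. With unnamed transcripts added 8 and 7 of the 11 fell and 3 and 2 rose. Over all genes tested with that sum, 28.8% and 28.2% were called lower and 25.3% and 28% higher. The level of Gpx4 RNA, given above, did not pass the test in the same libraries.

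**Figure D4:**
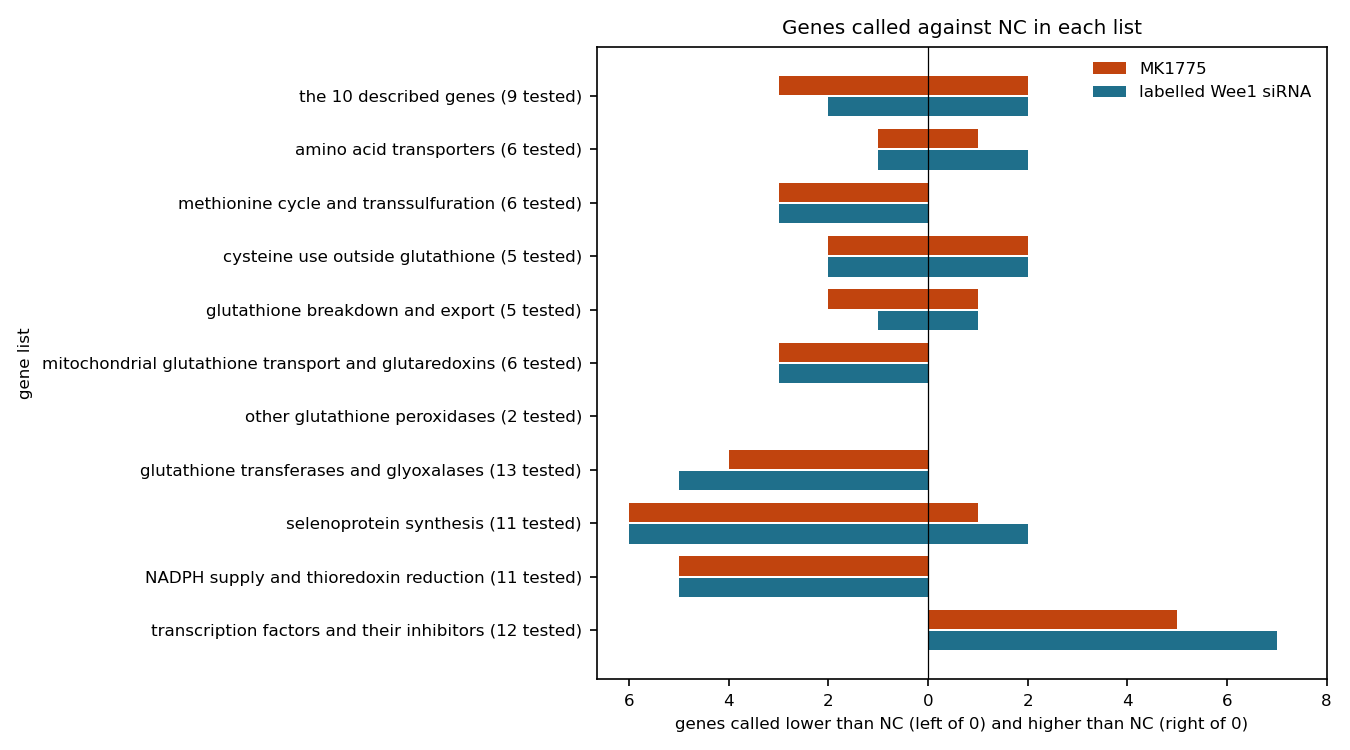
Number of genes called (limma adjusted p under 0.05) lower than NC, left of 0, and higher than NC, right of 0, in each list, for MK1775 and for the labelled Wee1 siRNA libraries. Of 11 tested genes of selenoprotein synthesis 6 fell in each comparison, and 1 and 2 rose. Of 12 transcription factors and their inhibitors 5 and 7 rose and none fell. Over all genes tested, 17.9% and 19.6% were called higher and 23.1% and 23.2% lower.

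Genes whose pattern over the 9 libraries was most like that of each described gene were ranked by Pearson's r of log2(FPKM + 1), given without a test since the gap between NC and treated libraries dominates it. For Chac1 these were Oasl1, Pvr and Epha2 (0.996, 0.995 and 0.994). For Slc3a2 they were Nudt18, 4921536K21Rik and Plk3 (0.998, 0.997 and 0.997), and for Slc7a11 with its unnamed model Lekr1, Eif1ad6 and Eif1ad2 (0.998, 0.994 and 0.993). Gsr was most like Pfn1, Qdpr and Ppp5c (0.995, 0.995 and 0.991) and Cth most like Coq7, 1700025G04Rik and Snx25 (0.987, 0.986 and 0.986). Gclc was closest to Chp1, Kdm1b and Stat5a, Chac2 to Shoc2, Rbm41 and Azi2, Gpx4 to Uap1l1, Kcnn4 and Aldh2, Gss to Lman2l, Comtd1 and Sppl2b, and Gclm to Eif5, Ncapg2 and Mbnl1, with leading values of 0.982, 0.961, 0.942, 0.914 and 0.897.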

How the data were processed

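The authors deposited FPKM per transcript and library for 158719 transcripts, 17991 of them assembled and without a gene name. The build GRCm39 and the tools FastQC, Trim Galore, HISAT2 and StringTie come from the submitters' processing notes, with no versions. Strand-aware counting is not stated, so overlapping and antisense reads cannot be told apart. FPKM were summed by gene name (leaving out 19 names that occur on several chromosomes), and again with unnamed transcripts of the same locus where it holds 1 named gene. Genes whose mean reached 1 FPKM were tested on log2(FPKM + 1) with limma 3.58.1 in R 4.3.3 (files read with version 1.17.8 of data.table), all 9 libraries in 1 fit with 3 group means, eBayes with trend, two-sided, Benjamini-Hochberg over all genes tested, threshold 0.05. The script was tested on simulated data. Figures used matplotlib 3.10.9. Named genes were the 10 genes, Wee1, Atf4, Nfe2l2, Ddit3, the 2 listed genes per list with the smallest adjusted p in each of the comparisons with NC, and the 3 most like each gene. Marker genes come from fixed marker lists. The genes and lists were chosen with earlier results of these data known. Alternatives are given in the closing section.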

Additional observations from a re-analysis of the deposited data

How the results depend on the processing

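The calls of Slc3a2, Chac1, Cth and Gsr against NC held under every alternative run (pseudocount 0.1, no filter, a minimum of 5 FPKM, 3 rescalings, the replicate number as a block, only the 2 groups compared, no trend, the most abundant transcript, unnamed transcripts added, each library left out). Those of Slc7a11 with unnamed transcripts held wherever it was tested, but a minimum of 5 FPKM removes it. Slc7a11 reached the minimum of 1 FPKM only through the treated libraries. Applying the alternatives to the sums with unnamed transcripts, and dropping the 8-exon Slc3a2 transcript, were chosen after seeing the data. Among the 10 genes only the calls of Gclc (lost with MK1775 in 15 of 20) and Gpx4 changed; with unnamed transcripts added, Gpx4 was called in the labelled Wee1 siRNA libraries at a common total (0.12) and under quantile normalization (0.15). Gpx8 in these libraries was at 0.00 and not called (limma adjusted p = 0.992), and was called lower at -0.28 (adjusted p = 0.0122) when unnamed transcripts were added. Same-numbered libraries of different groups did not deviate together (correlations -0.12 to 0.04 over 9 pairs, against -0.15 to 0.18 for other pairs). The labels do not say whether libraries of the same number were handled together, and so few correlations cannot decide it. With the replicate block 4 of the 9 genes were called in each comparison with NC.

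Counts over all genes moved most where few were called. Between the treated groups, 1 gene passed, against 11 without a filter, 0 with the replicate block, 2 with the most abundant transcript and 0 to 3 leaving out a library. With unnamed transcripts added, 1 gene passed, against 12 without a filter, 3 with a minimum of 5 FPKM, 2 at a common total, 0 with only the 2 groups and 0 to 6 leaving out a library. The most abundant transcript gave 3325 and 3546 calls against NC in place of 5921 and 6145. Counts for the 10 genes and for the listed genes stayed within 1.5 times. Depth is unknown, so no floor can be set for low genes such as Slc7a11.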
